A study of Mus musculus with 9 samples.

Results

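Cytosolic heat shock proteins were followed at the level of messenger RNA in mouse liver, together with Bag3, a co-chaperone that works with them. The genes were taken by symbol from the table of gene counts of the study, and all 10 of them were found among its 24411 genes: Hspa1a, Hspa1b, Hspa8, Hsph1, Dnajb1, Dnaja1, Hsp90aa1, Hspb1, Hspb8 and Bag3. Poly(A) RNA had been sequenced from 9 livers of mice on a C57BL/6 background at 3 months of age, fed ad libitum on a standard diet, with 3 livers in each of 3 groups. The mice of every group carried floxed alleles of Atg7, a gene needed to form autophagosomes. The group called cont had no Cre recombinase. The Atg7-KO group (Atg7flox/flox;Alb-Cre) carried Cre under the albumin promoter, which is active in hepatocytes. Atg7 in the other cells of the liver was not measured separately. The third group, called S351A from here on, carried the same alleles and Cre and, in addition, p62 with S351A on both copies, a mutation in the part of p62 that binds KEAP1. In the labels the genotype entry of S351A replicates 2 and 3 gives another position in p62 than the title, and the titles were followed. The comparison of Atg7-KO with cont addresses what the loss of Atg7 in hepatocytes does, and that of S351A with Atg7-KO what the p62 mutation adds.

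Heat shock proteins bind unfolded stretches of other proteins and help them to fold, to be held soluble or to be handed on for degradation. HSP70 proteins take a client from a J protein (DNAJ), which makes them hydrolyse ATP, and release it when a nucleotide exchange factor such as an HSP110 or BAG protein acts on them, while HSP90 works on clients that are already partly folded and small heat shock proteins hold unfolded proteins without using ATP. Heat shock factor 1, the product of Hsf1, drives the inducible genes of this group in response to heat and to damaged proteins by binding heat shock elements, which are inverted repeats of the letters GAA. BAG3 joins HSP70 to the small heat shock protein HSPB8 and to p62, and so leads ubiquitylated clients to autophagy. Liver that lacks Atg7 is known for the build-up of p62 and of ubiquitin-positive bodies.

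The windows upstream of 3 genes are shown because 2 of them, Hspb1 and Dnajb1, had the largest changes in Atg7-KO against cont of the 9 genes that passed the filter on low counts and the third belongs to the stress-inducible HSP70 pair. They are the 250 bases before the start of transcription in RefSeq (build GRCm38.p6), read 5′ to 3′ on the strand of the gene. Capitals mark matches to GAANNTTC, the head-to-head pair of a heat shock element. Hspa1a lies on chr17:34972157-34972406 on the - strand, Hspb1 on chr5:135887669-135887918 on the + strand and Dnajb1 on chr8:83607925-83608174 on the + strand.
Hspa1a: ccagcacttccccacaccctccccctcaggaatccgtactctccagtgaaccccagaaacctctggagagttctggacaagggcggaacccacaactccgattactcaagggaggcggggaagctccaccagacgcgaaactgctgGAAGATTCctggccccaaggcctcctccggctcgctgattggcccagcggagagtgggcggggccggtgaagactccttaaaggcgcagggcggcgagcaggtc
Hspb1: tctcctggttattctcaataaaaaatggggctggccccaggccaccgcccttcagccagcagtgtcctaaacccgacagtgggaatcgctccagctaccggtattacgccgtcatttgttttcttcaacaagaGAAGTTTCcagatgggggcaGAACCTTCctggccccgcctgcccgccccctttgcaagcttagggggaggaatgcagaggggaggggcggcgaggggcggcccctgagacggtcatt
Dnajb1: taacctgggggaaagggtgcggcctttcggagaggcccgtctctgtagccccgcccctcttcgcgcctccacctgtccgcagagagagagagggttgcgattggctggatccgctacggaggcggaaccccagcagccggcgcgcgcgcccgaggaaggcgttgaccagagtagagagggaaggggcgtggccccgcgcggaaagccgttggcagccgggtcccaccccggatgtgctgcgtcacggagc

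RefSeq windows from 250 bases before the start to 50 after it were found for 8 of the 10 genes. Hspa8 and Hsp90aa1 had no entry. The first window listed for each gene was used, and Hsph1 and Dnajb1 had 2 windows and Dnaja1 had 3. GAANNTTC, which reads the same on both strands, was in 7 of the 8 windows, and in 7.86% of the 32851 windows of all genes in the table. The exception was Dnajb1, neither of whose 2 windows held GAANNTTC or TTCNNGAA, the tail-to-tail pair, which also reads the same on both strands. In Dnaja1 1 of the 3 windows held GAANNTTC. TTCNNGAA occurred in 1 of the 8, Hsph1, against 8.52% of all windows. Hsph1 was also the one gene of the 8 with the 3-part element, GAANNTTC with NNGAA directly after it, searched on both strands and overlapping both pairs, which 0.603% of all windows held. The matches to GAANNTTC in these RefSeq windows began 104 bases before the start in Hspa1a and Hspa1b, 124 before it in Dnaja1, and 117 and 97 before it in Hspb1. Those of Hspb8, Hsph1 and Bag3 lay after the start, at 3, 42 and 43 bases, and the 3-part element of Hsph1 began at 37. TTCNNGAA in Hsph1 began 33 bases before the start and again at 37 after it. GENCODE starts Dnaja1 and Hsph1 further upstream than RefSeq does, so the Dnaja1 match lies inside the gene as GENCODE gives it. The windows of Hspa1a and Hspa1b differed at 4 of 300 bases. TGACNNNGC, the core of the antioxidant response element that NRF2 binds, was searched on both strands and matched in Hsph1 and Dnajb1, 2 of the 8, against 12.4% of all windows. CCAAT matched in 4 of the 8 (and in 2 of the 3 windows of Dnaja1, though not in its first) against 37.4%, and TATAAA in none against 13.6%. A match describes the letters of a window and does not show that a factor binds there.

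Library totals were 1875314, 3554764 and 15426566 counts in cont, 1945469 to 3675041 in Atg7-KO and 713835 to 792366 in S351A, so that depth and the p62 mutation cannot be told apart. Levels are CPM, counts relative to the library total after scaling by TMM factors, and a level of 3 counts, taken as the floor, was 0.267 to 3.70 CPM depending on the library. Atg7, the targeted gene, stood at 42.1 to 57.3 CPM in cont, 27.8 to 29.9 in Atg7-KO and 21.7 to 24.7 in S351A. The summed level of 8 hepatocyte markers was 54800 to 126000 CPM in cont, 31800 to 39400 in Atg7-KO and 30700 to 47300 in S351A, with none of the 8 at 0. The 5 ductular markers summed to 46.8 to 82.7 CPM in cont, 810 to 1190 in Atg7-KO and 714 to 1190 in S351A. The 6 markers of stellate cells and matrix gave 62.7 to 129, 721 to 882 and 544 to 723 CPM, and the 7 macrophage markers 212 to 308, 320 to 408 and 266 to 297 CPM. The other sums were those of 6 endothelial markers (101 to 192, 132 to 158 and 111 to 151 CPM), 5 erythroid markers (320 to 892, 92.3 to 203 and 149 to 216) and 5 lymphocyte markers (5.68 to 17.8, 41.3 to 54.5 and 22.8 to 34.5). Between cont and Atg7-KO the sums did not overlap for hepatocytes, ductular, erythroid and stellate cells, lymphocytes and macrophages, of whose 7 markers 5 were called higher in either comparison with cont. These markers thus moved with the loss of Atg7, and their part in the results on the heat shock genes was not tested. In RNA from whole liver, fewer cells of a type and less RNA per cell cannot be told apart.

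Levels between genes were compared per kilobase of exon. The length was that of all annotated exons of a gene merged, 8629 bases for Dnaja1 and 1031 for Hspb1, so the order depends on the annotation. In cont the order ran from Hsp90aa1 at 445 ± 236 CPM per kilobase (SD, n = 3) and Hspa8 at 409 ± 66.1, which did not differ beyond their spread, to Hspb8 at 82.6 ± 12.8. Dnaja1 at 30.7 ± 4.97 and Hspb1 at 27.2 ± 7.75 followed, and these neighbours were within their spread as well. Bag3 stood at 14.6 ± 3.10, Dnajb1 at 7.24 ± 0.127, Hsph1 at 5.01 ± 2.25 and Hspa1b at 3.16 ± 1.74. Dnajb1 and Hspa1b were each within the spread of Hsph1. Hspa1a was lowest at 0.139 ± 0.123 CPM per kilobase. The constitutive HSP70 and HSP90 alpha thus had the highest levels of the 10 in control liver.

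**Figure D1:**
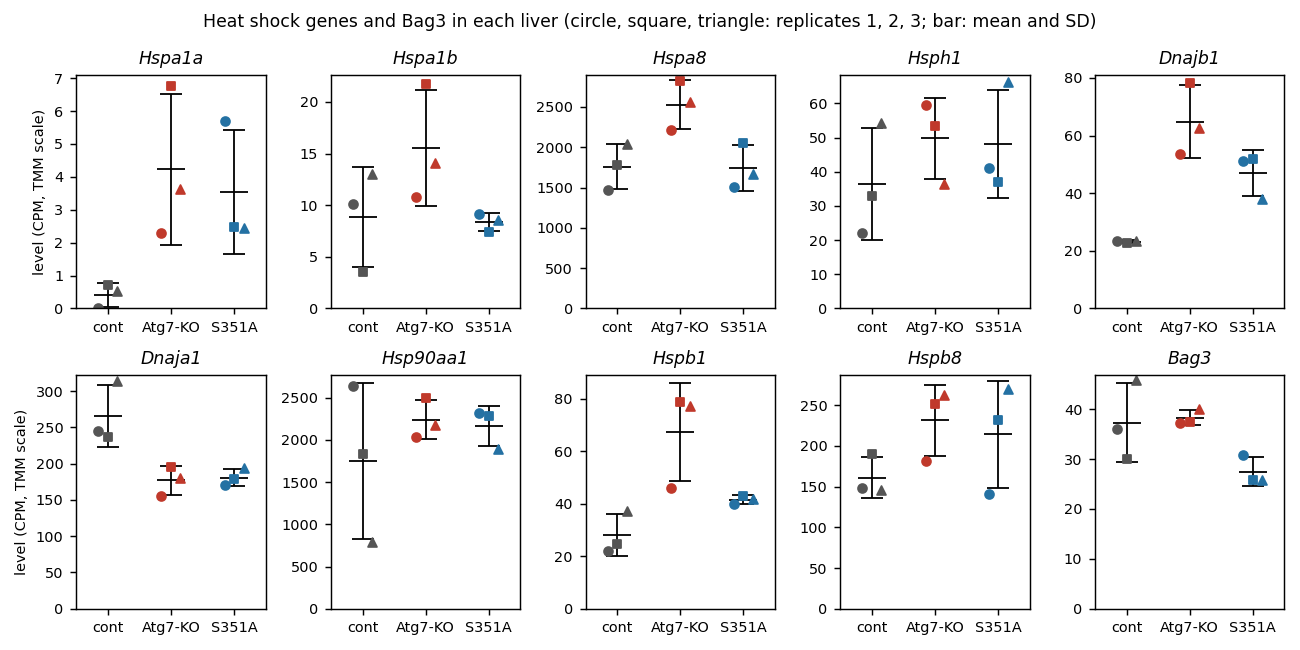
Level of each of the 10 genes in every liver, in CPM on the TMM scale (y axis, each panel from 0), for the groups cont, Atg7-KO and S351A (x axis). Symbols are single livers, and the bars give the mean and SD of 3. The 3 Atg7-KO livers lay above the 3 cont livers for Hspa1a, Hspa8, Dnajb1 and Hspb1 and below them for Dnaja1.

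Loss of Atg7 raised 2 of the 9 genes that passed that filter, Dnajb1 and Hspb1, and lowered 1, Dnaja1. Dnajb1 rose 2.79-fold and Hspb1 2.32-fold, while Dnaja1 fell by just over the required 1.5-fold. The call of Dnaja1 was lost in 14 of 20 alternative settings. The other 6, including Bag3 and the abundant Hspa8 and Hsp90aa1, did not pass the test. A gene counts as called where edgeR's quasi-likelihood test gave it an adjusted p under 0.05 (Benjamini-Hochberg, over 11199 genes) and its fold change was above 1.5. The share of all genes called was 38% in this comparison, 19.9% higher and 18.1% lower, so that 3 of 9 is near the background. The median log2 fold change of the 9 genes was 0.52 and that of all genes tested -0.03. Hspa1a was removed by the filter on low counts and was tested only without that filter, as given below.

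Dnajb1, the J protein that delivers clients to inducible HSP70, had 23.4, 22.7 and 23.5 CPM in the cont livers, 53.4, 78.4 and 62.7 in Atg7-KO and 51.3, 51.8 and 38.0 in S351A. The control livers were nearly alike, at 23.2 ± 0.407 CPM (SD, n = 3), and every liver with Cre lay above all of them. Against cont its log2 fold change was 1.48 (SE 0.20, adjusted p = 1.71e-04 by edgeR) in Atg7-KO and 1.02 (SE 0.22, adjusted p = 0.00497) in S351A. It was the one gene of the 9 called in S351A against cont, where 28.6% of all genes were called, 15.6% higher and 13% lower. That call rested on 31 to 45 counts per S351A library, and it was lost when all libraries were thinned to the smallest total, at a log2 fold change of 0.74. None of the 75-base windows of its transcripts was shared with another gene.

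Hspb1, known as HSP25 in the mouse, a small heat shock protein that also binds actin filaments, showed 22.1, 24.8 and 37.1 CPM in cont, 45.8, 78.8 and 77.2 in Atg7-KO and 39.9, 43.2 and 41.7 in S351A. The 3 groups did not overlap, with S351A between the others. The rise was 1.22 on the log2 scale in Atg7-KO (SE 0.25, adjusted p = 0.00251 by edgeR), and the log2 fold change in S351A against cont was 0.53 (SE 0.28, adjusted p = 0.173), which did not pass. Between S351A and Atg7-KO it was -0.69 (SE 0.27, adjusted p = 0.715), so a difference between the effects was not established. Of the 75-base windows of the Hspb1 transcripts, 46.4% also occur in the pseudogene Hsp25-ps1, and its reads may be split between them.

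Dnaja1, a farnesylated J protein of constitutive HSP70, was at 244, 237 and 315 CPM in cont, 155, 196 and 180 in Atg7-KO and 170, 179 and 194 in S351A. All livers with Cre were below all controls, and the groups with Cre overlapped each other. The log2 fold change was -0.59 in Atg7-KO (SE 0.20, adjusted p = 0.0381 by edgeR) and -0.55 in S351A (SE 0.21, adjusted p = 0.0619). The call in Atg7-KO was kept in 6 of 20 alternative settings. It was lost with RLE size factors, DESeq2, limma-voom and thinning, among others. The value ran from -0.66 to -0.05, the last of these when libraries were scaled by their totals. Reads of Dnaja1 could fall on other genes over 18.4% of its windows, and it overlaps Smu1 on the opposite strand.

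Hspa8, the constitutive HSP70 of every cell, had 1469, 1776 and 2036 CPM in cont, 2209, 2818 and 2555 in Atg7-KO and 1503, 2053 and 1668 in S351A. Each Atg7-KO liver was above every liver of the other groups, while cont and S351A overlapped. The change in Atg7-KO against cont was 0.52 on the log2 scale (SE 0.25, adjusted p = 0.114 by edgeR) and did not pass. In S351A against cont it was -0.02 (95% interval -0.55 to 0.52). Its pseudogene Gm15459 shares 30.2% of its windows.

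The pair Hspa1a and Hspa1b encodes inducible HSP70, and 52.7% of the windows of Hspa1a also occur in Hspa1b, so the counts of one cannot be told apart from those of the other over that part. Hspa1a also overlaps Gm20481 on the opposite strand. Estimated counts of Hspa1a were 0, 1.63 and 6.40 in cont, 10.4, 18.8 and 7.59 in Atg7-KO and 4.88, 2.47 and 1.67 in S351A, which is at or below the floor in 4 of the 9 livers. Its levels were 0 to 0.699 CPM in cont and 2.30 to 6.77 in Atg7-KO, and the S351A livers, at 2.45 to 5.70, were also above every cont liver. With no filter on low counts, a fit over 19081 genes, edgeR called Hspa1a at log2 fold changes of 2.90 in Atg7-KO (SE 0.73, adjusted p = 0.00122) and 2.63 in S351A (SE 0.89, adjusted p = 0.0228) against cont, while S351A against Atg7-KO gave -0.27 (adjusted p = 0.960). These rest on the few counts above and on the division of reads within the pair. Hspa1b had 10.1, 3.50 and 13.0 CPM in cont, 10.8, 21.7 and 14.1 in Atg7-KO and 9.13, 7.40 and 8.58 in S351A, the last from 6.16 to 8.12 counts per library. The log2 fold change of Hspa1b in Atg7-KO against cont was 0.73 (SE 0.40, adjusted p = 0.170 by edgeR), and 0.37 to 1.30 when single libraries were left out, with a call only at the upper end, without cont replicate 3.

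The sum of the pair does not depend on how reads were divided within it. It came to 10.1, 4.20 and 13.5 CPM in cont, 13.1, 28.5 and 17.7 in Atg7-KO and 14.8, 9.86 and 11.0 in S351A. Cont and Atg7-KO overlapped at 13.5 and 13.1 CPM, and the log2 fold change of 1.01 (SE 0.39, adjusted p = 0.0579 by edgeR) missed the threshold. It was called in 6 of 18 alternatives, among them the fits without cont replicate 3, at 1.56, and without Atg7-KO replicate 1, at 1.26. In S351A against cont the sum gave 0.30 (SE 0.48, adjusted p = 0.686).

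Hsph1, the HSP110 that acts as nucleotide exchange factor for HSP70, had 22.1, 32.9 and 54.3 CPM in cont, 59.4, 53.5 and 36.3 in Atg7-KO and 41.1, 37.0 and 66.2 in S351A. The groups overlapped throughout. Its log2 fold change was 0.41 in Atg7-KO (95% interval -0.28 to 1.09) and 0.35 in S351A against cont (-0.39 to 1.08). When single libraries were left out the first of these ran from 0.18 to 0.84, and it passed the test only at the upper end, without cont replicate 3. The second ran from 0.047 to 0.78 and passed in none of these fits.

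Hsp90aa1, the inducible cytosolic HSP90, varied more among the controls than between groups, with 2636, 1830 and 786 CPM in cont, 2041, 2495 and 2184 in Atg7-KO and 2316, 2290 and 1897 in S351A. The control livers spanned 3.35-fold, and the groups with Cre lay inside that span. The log2 fold change in Atg7-KO against cont was 0.36 (95% interval -0.43 to 1.14), and 0.0047 to 0.78 when single libraries were left out. Of the Hsp90aa1 windows 42.8% also occur in other genes, mostly the pseudogene Gm12346. Hsp90ab1, the constitutive HSP90, gave 0.33 (SE 0.30, adjusted p = 0.430 by edgeR).

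Hspb8 and Bag3 encode the partners that take clients to autophagy with p62. Hspb8 had 148, 190 and 145 CPM in cont, 182, 251 and 262 in Atg7-KO and 141, 232 and 270 in S351A, and all groups overlapped. Its log2 fold change against cont was 0.52 (SE 0.26, adjusted p = 0.135 by edgeR) in Atg7-KO and 0.41 (SE 0.27, adjusted p = 0.269) in S351A. Bag3 had 35.99, 30.1 and 45.8 CPM in cont and 37.3, 37.4 and 40.0 in Atg7-KO. The Atg7-KO livers lay inside the range of the controls, and the change was 0.02 with a 95% interval of -0.41 to 0.45. In S351A, Bag3 was at 30.8, 25.9 and 25.7 CPM, from 21 to 27 counts per library, with a log2 fold change of -0.45 against cont (SE 0.22, adjusted p = 0.148 by edgeR). Sqstm1, which encodes p62 itself, changed by 0.38 in Atg7-KO (SE 0.21, adjusted p = 0.169 by edgeR) and by -0.05 in S351A, and neither passed.

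**Figure D2:**
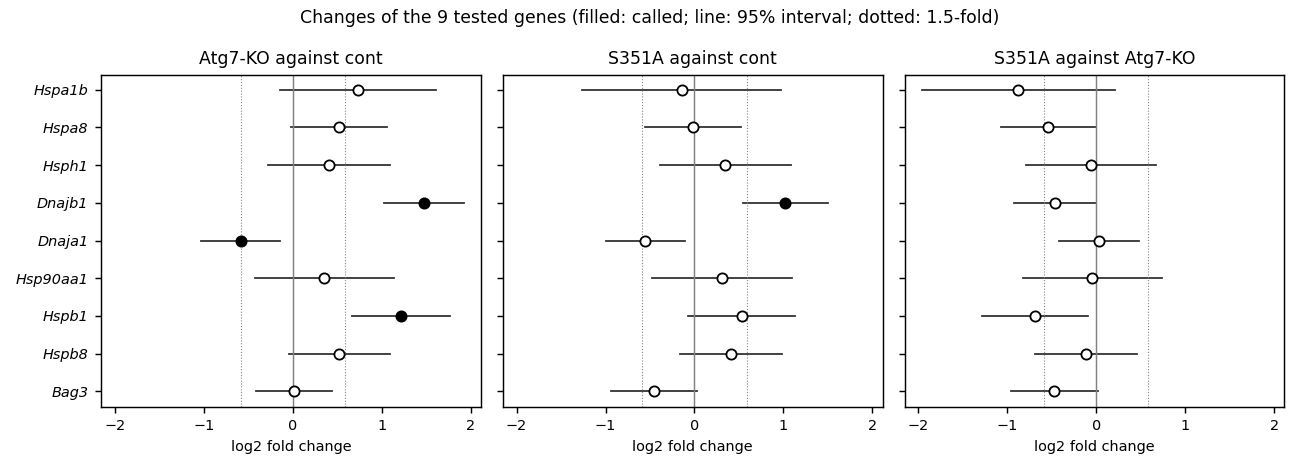
Log2 fold changes (x axis) of the 9 tested genes in the 3 comparisons, from the edgeR fit to 9 livers. Points are estimates, lines are 95% intervals, filled points passed both thresholds and dotted lines mark a 1.5-fold change. Dnajb1, Dnaja1 and Hspb1 were called in Atg7-KO against cont, Dnajb1 in S351A against cont and none in S351A against Atg7-KO, where 8 of 9 points lay below 0.

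The p62 mutation on top of the loss of Atg7 gave no called gene among the 9, and all but Dnaja1 had a negative log2 fold change in S351A against Atg7-KO. By edgeR 0.00893% of all genes were called here, and the lowest adjusted p of the 9 was 0.715, for Hspb1. At an unadjusted p under 0.05, 2 of the 9 passed (Hspa8 and Hspb1) against 6.6% of all genes, and DESeq2 and limma-voom also called none of the 9. The 95% intervals, which are not adjusted for the number of genes, were -1.28 to -0.098 for Hspb1, -1.07 to -0.0014 for Hspa8 and -1.96 to 0.21 for Hspa1b. The 3 S351A livers were below the 3 Atg7-KO livers for 5 of the 9 genes, Hspa1b, Hspa8, Dnajb1, Hspb1 and Bag3, which is the case for 9.23% of all genes tested, and above them for none, against 7.67%. The median log2 fold change was -0.46 for the 9 genes and 0.01 for all genes. Depth differed between the groups in the same way, and the libraries of Atg7-KO are those used against cont, so the rise in one comparison and the lower values in the other are not independent.

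In the comparisons with cont, livers did not overlap for 3 genes higher (Hspa8, Dnajb1 and Hspb1) and 1 lower (Dnaja1) in Atg7-KO, against 26.7% and 24.9% of all genes. The corresponding counts were 2 higher (Dnajb1 and Hspb1) and 1 lower (Dnaja1) in S351A, against 19.6% and 18.4%. A test of any difference among the 3 groups found 2 of the 9, Dnajb1 (adjusted p = 5.42e-04 by edgeR) and Hspb1 (adjusted p = 0.00714), where 35.1% of all genes passed.

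Within groups the livers ranked as follows. Cont replicate 3, the deepest library, was the highest control for 7 of the 9 tested genes and 36.2% of all genes, Atg7-KO replicate 2 the highest of its group for 6 and 32.3%, and Atg7-KO replicate 1 the lowest for 8 and 34.0%. In S351A each replicate was highest for 3. A mean profile was taken over Hspa1b, Hspa8, Hsph1, Dnajb1, Dnaja1 and Hsp90aa1, without Hspb1, Hspb8 and Bag3. Its mean centred log2 level was -0.43 to -0.12 in cont, 0.14 to 0.52 in Atg7-KO and -0.04 to -0.01 in S351A. The 5 genes whose centred log2 levels over 9 libraries were nearest to that mean profile were Ppif, Desi1, Josd1, Nudc and Itfg3, with root mean square distances of 0.0928 to 0.104. Hspa8 and Hsp90aa1 are among the genes that form that profile. Even so, 158 other genes were nearer to it than Hspa8, at 0.199, and 4852 nearer than Hsp90aa1, at 0.491.

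The choice of scaling set the size of these changes. The 20 genes with most counts took 21.5% to 30.5% of counts in cont and 15.4% to 17.7% in the livers with Cre, and scaling by library totals moved the median of all genes in Atg7-KO against cont from -0.03 to 0.51. With totals 6 of the 9 genes were called in that comparison, all higher, where 45.4% of all genes were called and 38.3% called higher. No overlap with cont, on the higher side, was then found for 8 of the 9 and for 48.2% of all genes. A scaling moves all genes by a like amount, so the distance from the median of all genes is nearly fixed by construction and says nothing about a call. On that scale Dnajb1 stood 1.51 above that median under each, Hspb1 1.25 above it with TMM and 1.26 with totals, Hspa8 0.55 above it under each, and Bag3 0.05 and 0.06 above it.

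**Figure D3:**
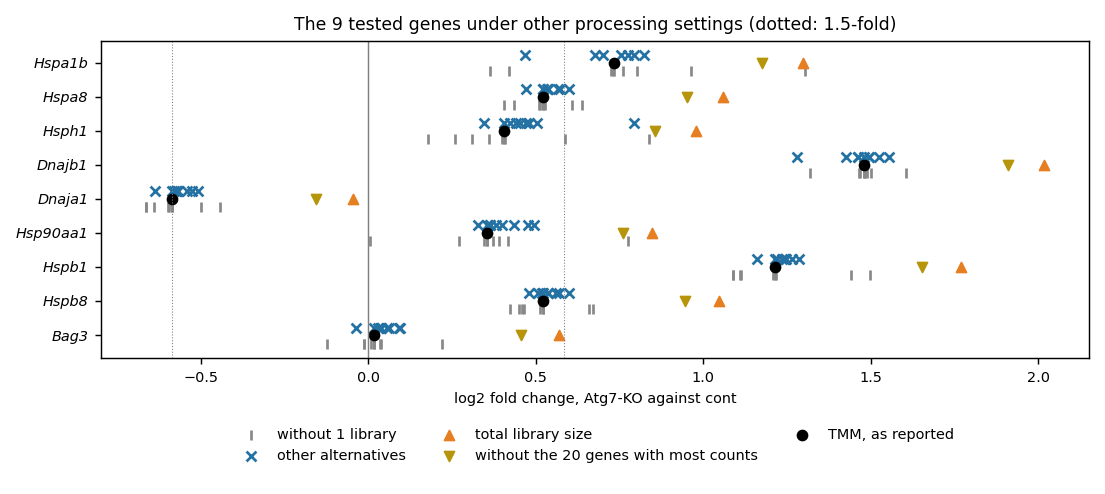
Log2 fold change in Atg7-KO against cont (x axis) of the 9 tested genes under the reported TMM fit (black circles), library totals (orange triangles), totals without the 20 genes with most counts (yellow triangles), fits without 1 library (grey ticks) and the other settings (blue crosses). Dotted lines mark a 1.5-fold change. Dnajb1 and Hspb1 lay beyond the limit under every setting drawn, and both alternative totals moved all 9 genes to the right.

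Chaperones of other classes were taken from lists, and in Atg7-KO against cont the endoplasmic reticulum (ER) chaperones fell, 11 of 13 called lower and none higher, against 18.1% of all genes called lower, with a median log2 fold change of -0.90. With library totals 5 of the 13 were still called lower, against 7.15% of all genes, and the median was -0.35. Of the 8 hepatocyte markers 7 were called lower in Atg7-KO and 6 in S351A against cont, and their part in the ER values was not tested. Hspa5, the HSP70 of the ER known as BiP, went from 615 ± 199 to 226 ± 42.8 CPM (SD, n = 3), a log2 fold change of -1.44 (adjusted p = 0.00128 by edgeR). Hsp90b1, its HSP90, changed by -1.48, the calcium-binding lectin Calr by -1.36 and Sdf2l1, a partner of ER J proteins, by -2.13, and these 4 were called lower under each of 4 scalings. In S351A against cont 7 of the 13 were called lower with TMM, against 13% of all genes, and 1 with library totals, against 4.57%. In S351A against Atg7-KO none of the 13 was called by edgeR, and 12 had a positive value.

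Among other cytosolic classes few genes were called. The list of heat shock factors held 4 genes, among them Hsbp1, which encodes a binding protein of such factors rather than a factor. None of these 4 and none of the 9 other J proteins passed in either comparison with cont on the TMM scale. For Hsf1 the means were 35.2 ± 8.41 CPM (cont), 33.4 ± 2.75 (Atg7-KO) and 23.6 ± 5.00 (S351A; SD, n = 3), with log2 fold changes of -0.05 and -0.55 against cont. With library totals 1 of the 4 listed genes and 4 of the 9 J proteins were called higher in Atg7-KO, near the 38.3% of all genes. On the TMM scale Hsbp1, at 0.20, was the only 1 of the 4 with a positive value in Atg7-KO against cont.

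HSP90 and its co-chaperones gave 1 called lower of 12 in Atg7-KO, against 18.1% of all genes, Fkbp4, an immunophilin that acts on steroid receptors, at -0.82 (adjusted p = 0.00704 by edgeR). Library totals ended that call, at -0.28. Of 4 tested further HSP70 and HSP110 genes 1 was called lower, Hspa1l at -1.24, and this call was lost with totals as well. With totals 1 of the 4 was called higher instead, against 38.3% of all genes, Hspa4l at 0.83, which is named for this count after its value was seen. The 14 subunits of the chaperonin TRiC and of prefoldin, which fold actin and tubulin, had 2 called higher, Pfdn1 at 0.71 and Cct2 at 0.62, against 19.9% of all genes, and 5 with totals, against 38.3%. None of 8 mitochondrial chaperones and proteases was called in Atg7-KO, and Hspd1, the HSP60 of mitochondria, gave 0.071. With totals 1 of the 8 was called higher, Hspd1 at 0.61, against the same 38.3%.

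Of 7 tested genes of other HSP70 co-chaperones and BAG proteins, 1 was called higher and 2 lower in Atg7-KO, against 19.9% and 18.1% of all genes. Bag1, which couples HSP70 to the proteasome, rose from 125 ± 9.88 to 216 ± 17.5 CPM (SD, n = 3), at a log2 fold change of 0.79 (adjusted p = 0.00959 by edgeR), and stayed called in S351A against cont at 0.73. Bag4 changed by -1.11 and Stub1, the ubiquitin ligase CHIP, by -0.62, but Bag4 was not called with totals, at -0.58. Stub1 was called under none of the other 3 scalings, with RLE size factors only because its adjusted p rose from 0.0442 to 0.0514 (edgeR) at -0.61, and was at -0.10 with totals. Bag3, the BAG protein of the autophagy route, had no such change, as given above.

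Only 2 of the 7 other small heat shock genes were abundant enough to test. Cryab, alpha-B crystallin, rose from 3.37 ± 0.981 CPM in cont to 10.4 ± 2.90 (Atg7-KO) and 15.98 ± 2.51 (S351A; SD, n = 3), at log2 fold changes of 1.497 (adjusted p = 0.00380 by edgeR) and 2.11 (adjusted p = 0.00150). Hspb6 fell by 1.01 on the log2 scale in Atg7-KO, and this call was lost with totals, at -0.45. The 5 smooth muscle markers, a cell type known for Cryab, Hspb1 and Hspb6, summed to 22.8 to 30.4 CPM in Atg7-KO and 14.7 to 34.5 in S351A, the lowest cont liver stood at 10.9 and all groups overlapped, and Cnn1 was at 0 in cont.

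Of 10 genes that handle ubiquitin and aggregates, Optn at -0.96 and Ubqln1 at -0.71 were called lower in Atg7-KO, against 18.1% of all genes. With totals neither was called and 1 of the 10 was called higher, Sqstm1 at 0.90, against 38.3%. In S351A against cont the genes called lower were 3 of 12 for HSP90 and its co-chaperones, 2 of 8 for the mitochondrial list and 3 of 10 for ubiquitin and aggregates, against 13% of all genes. With totals none of these 3 lists had a gene called lower, and 1 of the 12 was called higher, Hsp90ab1 at 0.91, against 31.2% of all genes. Between S351A and Atg7-KO edgeR called no gene of any class.

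**Figure D4:**
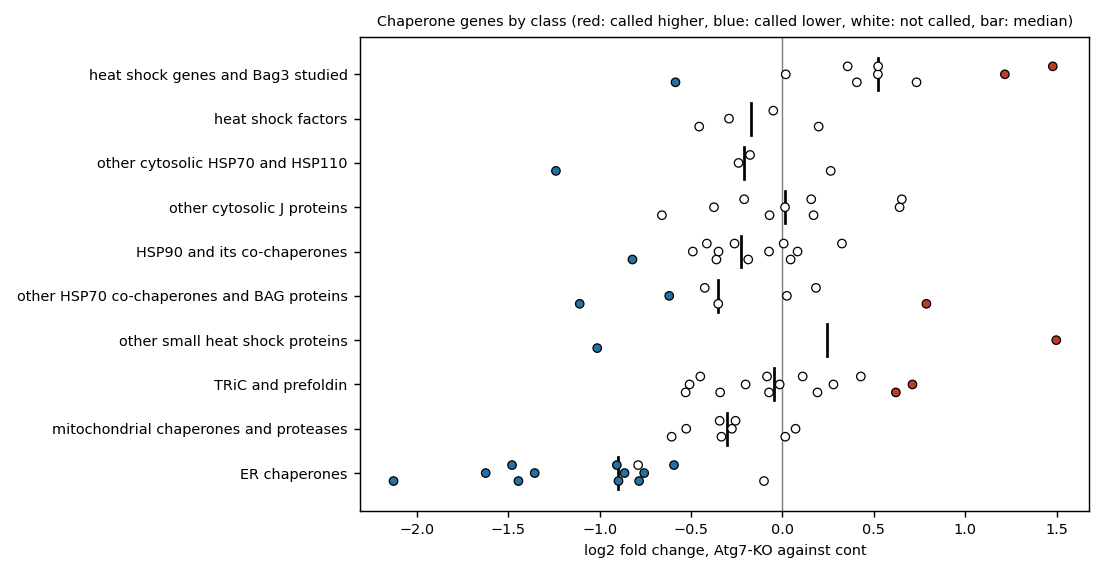
Log2 fold change in Atg7-KO against cont (x axis) of every tested gene of 10 classes (y axis), on the TMM scale with 3 livers a group. Each circle is a gene, red where called higher, blue where called lower and white where not called, and the bar is the median of the class. Medians ran from -0.90 for the ER chaperones to 0.52 for the heat shock genes and Bag3 studied here.

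The remaining 3 lists were counted because their genes respond to stress, handling or the hour of sampling. Of 8 tested immediate early genes 4 were called higher in Atg7-KO (Atf3 at 3.85, Myc at 2.36, Ier3 at 2.30 and Jun at 1.86) and 3 in S351A against cont, where 19.9% and 15.6% of all genes were called higher. Of 15 tested clock and cold-inducible genes 6 were called lower in Atg7-KO and 5 in S351A, and with library totals 1 lower and 1 higher in Atg7-KO and 1 lower in S351A. The shares of all genes called lower were 18.1% and 13% with TMM and 7.15% and 4.57% with totals. With totals 38.3% of all genes were called higher in Atg7-KO against cont. Of 16 NRF2 targets 12 were called higher in Atg7-KO and 9 in S351A against cont, beside the same 19.9% and 15.6% of all genes, with none called in S351A against Atg7-KO and a median there of -0.91. The part of these lists in the changes of Dnajb1 and Hspb1 was not tested.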

How the data were processed

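Liver poly(A) RNA of 9 mice, 3 biological replicates in each of 3 genotype groups, was analysed. The authors trimmed 75-base single-end reads with Trim Galore, used STAR to map them to mm10 and RSEM for gene levels, and deposited expected counts (estimated, unscaled read counts per gene). Annotation, strand setting and versions are not given in the sources used here. Samples were grouped by their titles.

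Expected counts were rounded before analysis in edgeR 4.0.16 (R 4.3.3). Filtering by filterByExpr (minimum count 10, minimum total 15) kept 11199 of 24411 genes, and 9 of the 10 heat shock genes. All 9 libraries entered a single quasi-likelihood fit on genotype group, scaled by TMM, and p-values were adjusted by Benjamini-Hochberg over the 11199 genes. Genes were called at an adjusted p under 0.05 and a fold change above 1.5. Standard errors and unadjusted 95% intervals, the latter with the test's total degrees of freedom, are those of the quasi-likelihood test and reflect the spread between livers. CPM were computed from the rounded counts on the TMM scale. Per-kilobase levels used the exons of GENCODE M21, which also gave the 75-base windows shared between transcripts. Promoters came from RefSeq (GRCm38.p6). Floors cover counting error only, since reads carried no molecular identifiers. No pair of replicates agreed within sampling noise (chi-square per gene 2.29 to 117).

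The genes and the lists were chosen with earlier results of these data known, so no test over a list was made. All 10 genes were named. Of each list, at most the 4 called genes with the smallest adjusted p in Atg7-KO against cont were named, with Hsf1, Hspa5, Hsp90ab1, Hspd1 and Sqstm1. Hsbp1 was named as well, to describe its list. Alternatives were 3 other scalings, 2 other filters, DESeq2 1.42.0, limma-voom (limma 3.58.1), the 6 compared libraries alone, a replicate block, thinning to the smallest library, no fold limit, the summed Hspa1a and Hspa1b pair, and leaving out each library. Other genotypes were not analysed here.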

Additional observations from a re-analysis of the deposited data

How the results depend on the processing

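With library totals and with totals without the 20 genes with most counts, 6 and 6 of the 9 genes were called in Atg7-KO against cont, 3 and 3 in S351A against cont, and 7 and 4 differed among the 3 groups (4 with DESeq2), against 42.1% and 39.3% (36.1%) of all genes. Of all genes 45.4% and 42.4% were called in Atg7-KO, and 35.8% and 32.8% in S351A, against cont. The median log2 fold changes were then 1.05 and 0.95 in Atg7-KO and 0.75 and 0.67 in S351A against cont, since these scalings moved the median of all genes by a like amount. Genes with no overlap, a count added after the values were seen, were 8 and 7 higher and 0 and 0 lower in Atg7-KO, and 4 and 3 higher and 0 and 0 lower in S351A, against cont. The shares of all genes were 48.2% and 43.7% higher and 9.72% and 11.7% lower in Atg7-KO, and 37.2% and 33% higher and 5.8% and 7.77% lower in S351A. In S351A against cont no filter gave 2 called genes (Dnajb1 and Hspa1a), against 22% of all genes, and a median of 0.23, thinning gave 0 called genes, against 20.9%, and at least 10 counts in every library gave a median of 0.39 (-0.30 against Atg7-KO). Without the filter Hspa1a was called in Atg7-KO against cont too, and Dnaja1 was not, so that the count stayed at 3. No setting called any of the 9 in S351A against Atg7-KO.

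The summed Hspa1a and Hspa1b pair was called in Atg7-KO with library totals (1.57), without the 20 genes with most counts (1.45), with no filter (0.95) and with DESeq2 (1.07). Single libraries left out gave it 0.66 to 1.56, and -0.041 to 0.85 in S351A against cont.

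Some values changed sign. Hspa8 in S351A against cont became 0.0042 with RLE size factors, 0.0036 with DESeq2, 0.0069 with 6 libraries, 0.042 when thinned, 0.048 with the stricter filter, 0.37 without the 20 genes and 0.47 with totals. Hspa1b there became 0.37 with totals and 0.26 without the 20 genes, and Bag3, reported at -0.45, 0.044 with totals. With no filter Bag3 in Atg7-KO against cont became -0.036. Against Atg7-KO, Dnaja1 in S351A became -0.017 with totals, -0.0060 without the 20 genes and -0.025 with no filter, and Hsph1 0.0038 when thinned. The cause was not tested.

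Leaving out single libraries gave 2 to 4 called genes in Atg7-KO against cont (4 without cont replicate 3, against 35.6% of all genes, and 28.7% to 38.6% over these fits) and -0.12 to 0.22 for Bag3. In S351A against cont the ranges were 0.047 to 0.34 for the median, -0.16 to 0.10 for Hspa8, -0.51 to 0.43 for Hspa1b and -0.043 to 0.73 for Hsp90aa1. Against Atg7-KO they were -0.49 to -0.30 for the median, -0.055 to 0.11 for Dnaja1, -0.11 to 0.040 for Hsp90aa1, -0.31 to 0.12 for Hspb8 and -0.36 to 0.10 for Hsph1. Dnajb1 and Hspb1 were called in Atg7-KO against cont under all 20 alternatives.

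The samples were not treated as paired by replicate number, though a partial pairing cannot be told from these data: 5 of 9 same-numbered pairs correlated above 0.1 (-0.0415 to 0.306, all but the lowest positive), and 4 of 9 samples correlated best with their own number. With the replicate block 2, 1 and 0 of the 9 genes were called in Atg7-KO against cont, S351A against cont and S351A against Atg7-KO, against 38.5%, 30.4% and 0.00893% of all genes. Dnaja1 was the call lost, at -0.58. Depth limits S351A most, where Hspa1b had 6.16 to 8.12 counts per library.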
